A study of Mus musculus with 8 samples.

Results

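A set of 10 genes of the cellular defence against peroxides and superoxide was examined in single myocardial cells of the mouse embryo: the peroxiredoxins Prdx1, Prdx2, Prdx3, Prdx4, Prdx5 and Prdx6, the superoxide dismutases Sod1 and Sod2, and the glutathione peroxidases Gpx1 and Gpx4. They were chosen by name, as the probes whose gene name in the array files equalled one of these symbols, and they made up 10 of the 21515 genes that the array named by a RefSeq symbol. Together they had 14 probes of 60 bases each, 8 of the 10 genes having 1 probe, Prdx1 having 2 and Prdx6 having 4.

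Superoxide dismutases turn superoxide into hydrogen peroxide, Sod1 in the cytosol and Sod2 in the mitochondrial matrix. Peroxiredoxins reduce hydrogen peroxide with a reactive cysteine that is restored mostly by thioredoxin, and glutathione peroxidases reduce peroxides with a selenocysteine and electrons from glutathione. The heart relies on both routes because its dense mitochondria give off superoxide during respiration.

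Each of the 8 arrays held amplified cDNA of 1 cell from the heart tube at embryonic day (E) 8.5, at the stage of 9 somites. The 4 wild-type (WT) cells carried the genotype Mesp1+/+ Sox17flox/flox, and the 4 knockout (KO) cells carried Mesp1Cre/+ Sox17flox/flox. Floxed Sox17 was thus common to both groups, and the Mesp1Cre allele, in place of 1 Mesp1+ allele, was the difference. Mesp1-Cre acts in early mesoderm, which gives rise to myocardium and endocardium alike, and the study took the compartment of each cell from a PCR for marker genes. The labels tied no cell to an embryo, litter or culture, so each genotype counted as 1 sample of cells, no test between genotypes was made, and every SD is the spread between 4 cells. The 4 WT arrays lay on 1 slide and the 4 KO arrays on another, with a scan for each slide, and the effect of the slide therefore cannot be told apart from that of the genotype.

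Signals were the scanner's processed intensity after each array had been shifted to a common median and values under 50 had been set to 50, which is called the floor and equals 5.64 on the log2 scale. Detection of a probe in a cell means that the scanner software flagged its signal well above background, and a probe is called present if either genotype had it detected in each of its 4 cells. A difference is the mean log2 signal of the KO cells minus that of the WT cells, and a size rule of at least 5-fold (2.32 on the log2 scale) in a present probe stands in for a test. Between 9549 and 14468 of the 55681 probes were detected on an array. Of the 7467 present probes, 6.88% were lower in KO by the rule and 1.75% were higher, and lower probes were 79.7% of all that met it, or 68.1% after quantile normalization. All 10 myocardial marker genes, such as Myh6, Actc1 and Tnnt2, were detected in all 8 cells, and their summed signal ran from 605386 to 1013750 among the WT arrays and from 701360 to 1046700 among the KO arrays. Of 9 endothelial and endocardial markers 2 to 3 were detected in a WT cell and 1 to 2 in a KO cell, with summed signals of 925 to 4709 and 843 to 2232, and only Kdr and Egfl7 were above the floor. These sums count each marker at the floor as 50. Their upper ends came mostly from Egfl7, above the floor only in WT cell 3, at 3666, and KO cell 2, at 1273. None of the 8 erythroid and 7 endoderm markers was above the floor in any cell, and neither of the 2 probes of Sox17 itself was detected in any cell of either genotype, so that they do not check the labels.

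The probe sequences show which stretch of each transcript a signal came from, and those on which the results below turn are printed 5′ to 3′ on the strand of the gene, with positions on mm9, the build of the array files. Whole probes are shown for 4 of them, each with a reading frame that holds no stop codon, and for other probes only up to 30 bases around AATAAA, in capitals, the hexamer that signals polyadenylation. Exon and untranslated-region annotation was not used here.

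Prdx5 (chr19:6981371-6981430, minus strand): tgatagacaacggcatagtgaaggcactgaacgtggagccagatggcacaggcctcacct

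Prdx6 probe 3 (chr1:163173715-163173774, minus strand): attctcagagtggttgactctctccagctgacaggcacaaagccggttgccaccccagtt

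Prdx6 probe 1, within chr1:163171138-163171197, minus strand: tgaggttcaacaAATAAAatcctgatcaga

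Gpx1 (chr9:108242276-108242335, plus strand): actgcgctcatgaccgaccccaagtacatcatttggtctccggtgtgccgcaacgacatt

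Gpx4 (chr10:79518783-79518842, plus strand): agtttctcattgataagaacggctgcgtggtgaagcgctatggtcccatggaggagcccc

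The hexamer lay in 3 of the 14 probes (21.4%), those of Prdx2, Prdx4 and Prdx6 probe 1, against 10.1% of all 55681 probes. In the Prdx2 probe (within chr8:87498153-87498212, plus strand) it stood in ctataggaaaccAATAAAgtattagggaca, and in the Prdx4 probe (within chrX:151758471-151758530, minus strand) in ttggaccttctcAATAAAggtcattgtgt. The cDNA was primed at the poly(A) tail, and these are the probes of the set with this signal of a nearby transcript end in their sequence.

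Across the set, 9 of the 10 genes were present by their representative probe, the brightest of the gene, and Prdx3 was not. Of these genes 1, Prdx5, was at least 5-fold higher in KO and 0 were at least 5-fold lower, against 2.87% and 11.1% of the 3064 present genes of the array. By probe, 11 of the 14 were present. Of these 1 was higher (Prdx5) and 2 were lower (both of Prdx6), against 1.75% and 6.88% of all present probes. In both of these Prdx6 probes the cells at the floor were KO cells 1 and 3. The differences were below 0 for 5 genes and above 0 for 5, with a median of -0.16 over all 10 genes, where the median of all present genes was 0. In no gene were all KO cells above or all WT cells above the other group, a pattern found in 2.51% and 3.46% of the present genes. For every gene but Prdx5 the difference was smaller than the larger of its SDs between cells. On the log2 scale the median SD of the 10 genes was 1.20 for WT and 1.78 for KO, against 0.99 and 0.94 for all present genes. The sets differ in kind, since the 10 include Prdx3. The present genes include some at the floor in every cell, such as Hmox1, with an SD and a difference of 0.

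**Figure D1:**
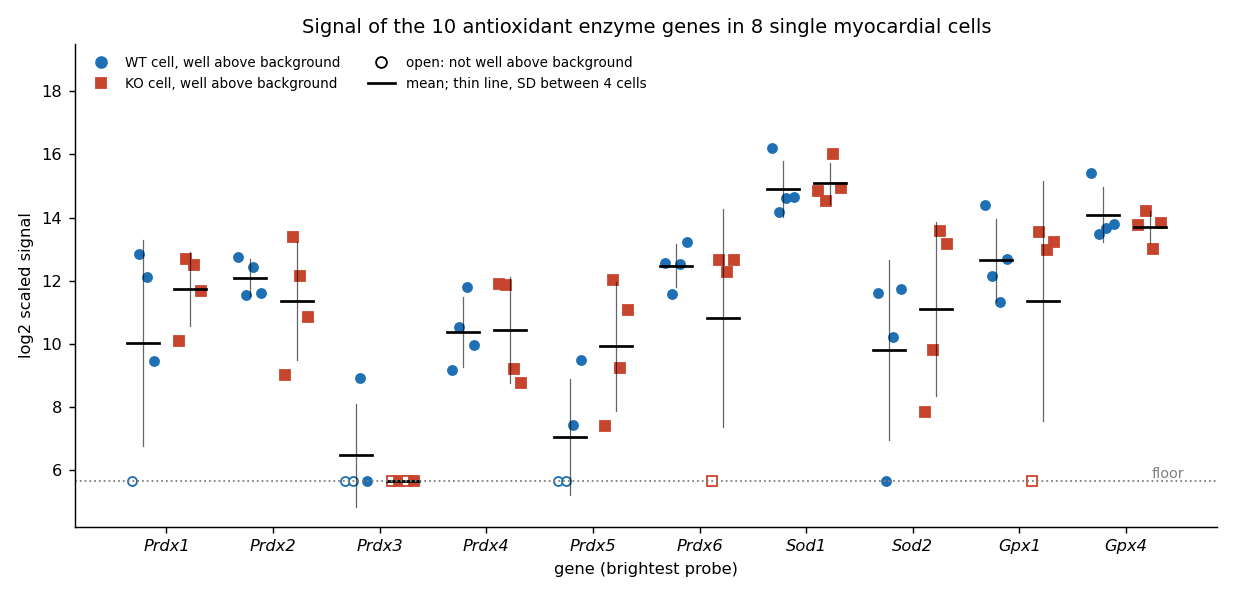
The log2 scaled signal (y axis) of the representative probe of each of the 10 genes (x axis) is plotted for the 4 WT cells (circles) and the 4 KO cells (squares), with the mean and the SD between cells, open symbols for cells in which the probe was not well above background, and the floor as a dotted line. In every gene the cells of the genotypes overlap, and single cells at the floor stand far below the others for Prdx1, Prdx6, Sod2 and Gpx1.

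Among the dismutases, Sod1, the copper-zinc enzyme of the cytosol, was detected in all 8 cells (chr16:90226509-90226568). In the order of cells 1 to 4, the WT signals were 75763, 18318, 24966 and 25608 and the KO signals 29301, 23755, 65620 and 31636. The groups overlapped throughout, with WT cell 1 and KO cell 3 above the other 6. On the log2 scale, the WT mean was 14.91 ± 0.90 (SD, n = 4 cells) and the KO mean 15.08 ± 0.64, a difference of 0.18 whose sign turned under 6 of 23 other settings, among them quantile normalization (-0.09). The range over the 8 cells was 4.14-fold, the narrowest of the 10 genes. A further probe, named only NAP097170-001 and placed on chr6:67156068-67156127, shared a run of 37 bases with the Sod1 probe and gave 65089, 14159, 19581 and 20486 in the WT cells and 23189, 18966, 50131 and 26277 in the KO cells. The signals of the pair varied in parallel (Pearson r = 0.998 over 8 cells), and whether the signal came from Sod1 or from a copy of it was not tested.

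Sod2, the manganese enzyme of mitochondria, spread far more widely (chr17:13208074-13208133). Its signal was 3136, 50, 1181 and 3412 in the WT cells and 230, 889, 12311 and 9201 in the KO cells. WT cell 2 was at the floor although the flag called it detected, KO cells 3 and 4 were above every WT cell, and KO cells 1 and 2 were below 3 of the WT cells. The means were 9.80 ± 2.86 in WT and 11.10 ± 2.75 in KO, a difference of 1.30, and without WT cell 2 the difference was -0.09. Without KO cell 1 it was 2.38, past the size rule.

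Prdx1 and Prdx2 are the abundant cytosolic peroxiredoxins of most cells. The main Prdx1 probe (chr4:116371818-116371877) read 50, 7340, 4460 and 700 in the WT cells and 1087, 6554, 5820 and 3254 in the KO cells. It was detected in all KO cells and in 3 WT cells, WT cell 1 being at the floor, and the other WT cells lay on both sides of the KO cells. The difference was 1.72, or 3.29-fold higher in KO, with SDs of 3.26 in WT and 1.18 in KO. Without WT cell 1 it was 0.26, and without WT cell 2 or WT cell 3 it was 2.66 and 2.42, past the size rule. The second Prdx1 probe lies 604 bases farther toward the 3′ end (chr4:116372422-116372481) and was detected only in WT cell 2, at 454, with the other 7 cells at the floor. The probes of Prdx1 therefore read differently in the same cells, and the second was not present.

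Prdx2 was detected in all 8 cells. Its signal was 6924, 3016, 5537 and 3156 in the WT cells and 510, 10622, 4544 and 1851 in the KO cells. The lowest and the highest cell were both KO cells. The means were 12.09 ± 0.60 in WT and 11.34 ± 1.87 in KO, a difference of -0.75, which was 0.03 without KO cell 1.

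Prdx3 is the peroxiredoxin of the mitochondrial matrix. Its probe, printed at 10 spots on each array (chr19:60940148-60940207), was above the floor in WT cell 3 alone, at 486, and was detected in WT cells 3 and 4 and KO cells 2 and 4. At this signal a difference between the genotypes could not be detected, and the computed value of -0.82 was 0.00 without WT cell 3.

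Prdx4 acts in the endoplasmic reticulum, where protein folding yields peroxide. It was detected in all 8 cells, at 570, 1477, 3569 and 1001 in the WT cells and 3841, 3737, 592 and 436 in the KO cells. KO cells 1 and 2 were the highest of the 8 and KO cell 4 the lowest, with the WT cells between 570 and 3569. The means were 10.36 ± 1.11 in WT and 10.44 ± 1.68 in KO, a difference of 0.08, whose sign turned under 7 of 23 other settings, with -0.27 when all probes set the scaling.

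Prdx5, a peroxiredoxin found in mitochondria, peroxisomes and the cytosol, was the 1 gene of the set that passed the size rule. Its signal was 50, 50, 171 and 714 in the WT cells and 169, 4117, 599 and 2164 in the KO cells. The probe was detected in all 4 KO cells and in WT cells 3 and 4, while WT cells 1 and 2 were at the floor. The groups overlapped, since WT cell 4 was above KO cells 1 and 3, and the 2 highest cells were KO cells 2 and 4. The means were 7.05 ± 1.83 in WT and 9.93 ± 2.04 in KO, a difference of 2.88 or 7.37-fold, which the floor set in part. Without KO cell 2 the difference was 2.19, under the rule, and without KO cell 1 it was 3.72. With values left unfloored it was 5.10.

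A further probe without a gene symbol carried a transcript accession that the array also lists for the Prdx5 probe, and was looked at after the Prdx5 values were known (chr19:6981197-6981256, minus strand). It stands closer to the 3′ end and holds the polyadenylation hexamer, within ccatatttctgcAATAAAcagtttaatttg. It read 50, 50, 328 and 1445 in the WT cells and 320, 7714, 1060 and 4735 in the KO cells. The order of the cells was the same as for the Prdx5 probe, with the same WT cells at the floor and a Pearson r of 0.994 over 8 cells, whose points share the amplified cDNA of each cell. Its difference was 3.34, ranging from 2.66 to 4.33 with 1 cell left out, and thus past the size rule without KO cell 2. Like the Prdx5 probe, it was detected in all 4 KO cells but only in WT cells 3 and 4. Both probes were therefore present through the KO cells alone, and the second is no separate check of the first. The genes next to Prdx5 in the RefSeq order were Ccdc88b, detected by neither of its probes in any cell, and Trmt112, whose chr19 probes differed by 0.77 and 0.00. Neither of these Trmt112 probes was present. The probe at 0.00 was at the floor in every cell, and the other ranged from -0.32 to 2.13 with 1 cell left out.

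**Figure D2:**
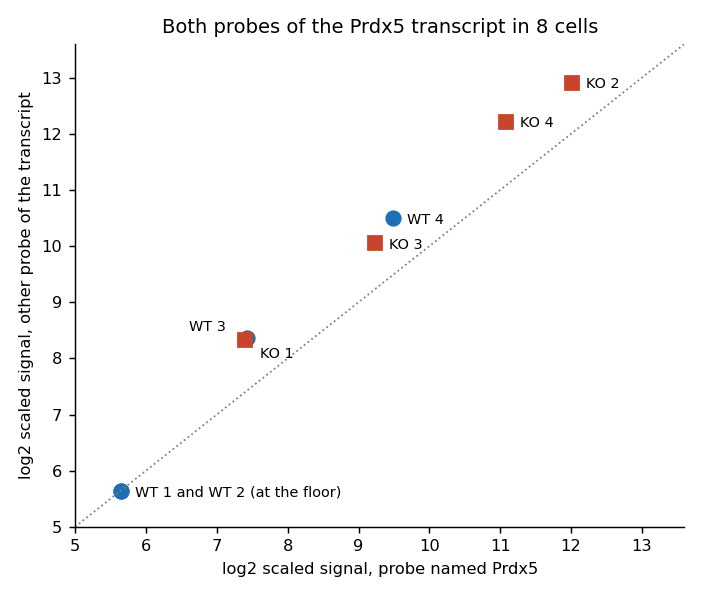
Each point is 1 cell, with the log2 scaled signal of the probe named Prdx5 on the x axis and that of the other probe of the transcript on the y axis, and the dotted line marks equal values. WT cells 1 and 2 coincide at the floor on both axes, WT cells 3 and 4 lie among the KO cells, and KO cells 2 and 4 are the highest on both.

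Prdx6, the peroxiredoxin with a single reactive cysteine, which also has phospholipase activity, gave signals that depended on the probe. Numbered from the brightest, the probes follow the transcript in the order 3, 2, 1 and 4 from the 5′ side. Probes 3 and 2 are 199 bases apart in the transcript and 1924 bases apart in the genome, with 1725 bases between them that the transcript lacks. Probe 1 lies 653 bases beyond probe 2, and probe 4 (chr1:163170713-163170772) a further 425 bases along the chromosome.

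Probe 1 read 6048, 3039, 5887 and 9589 in the WT cells and 50, 6437, 4998 and 6481 in the KO cells. KO cell 1 was not detected and the other 3 KO cells lay within the WT range. The difference was -1.66, with SDs of 0.68 in WT and 3.45 in KO, and without KO cell 1 it was 0.06. Probe 2 (chr1:163171791-163171850) read 4017, 1802, 2613 and 2878 in the WT cells and 50, 3786, 50 and 2221 in the KO cells. Here KO cells 1 and 3 were both at the floor, while KO cells 2 and 4 lay within the WT range. The difference was -2.83, or 7.13-fold lower in KO, and without KO cell 1 or without KO cell 3 it was -1.86, under the rule. Probe 3 gave the same picture, with 2908, 1412, 1489 and 2152 in the WT cells and 50, 2824, 50 and 1878 in the KO cells. Its difference was -2.49, or 5.61-fold lower, and -1.57 without either of the KO cells at the floor. The flags called both probes detected in those cells, at unscaled signals of 22.0 and 23.7 for probe 2 and 23.9 and 14.9 for probe 3 in KO cells 1 and 3. Probe 4 was above the floor in KO cell 4 alone, at 87.5, and was not present.

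The Prdx6 transcript was thus read as low by probes 1 to 3 in KO cell 1, and by probes 2 and 3 alone in KO cell 3, where the probe holding the hexamer read 4998. The accessions listed for probe 3 include the transcript of Prdx6b, a closely related gene, whose own probe (chr2:80135295-80135354) was detected in 0 of 8 cells.

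**Figure D3:**
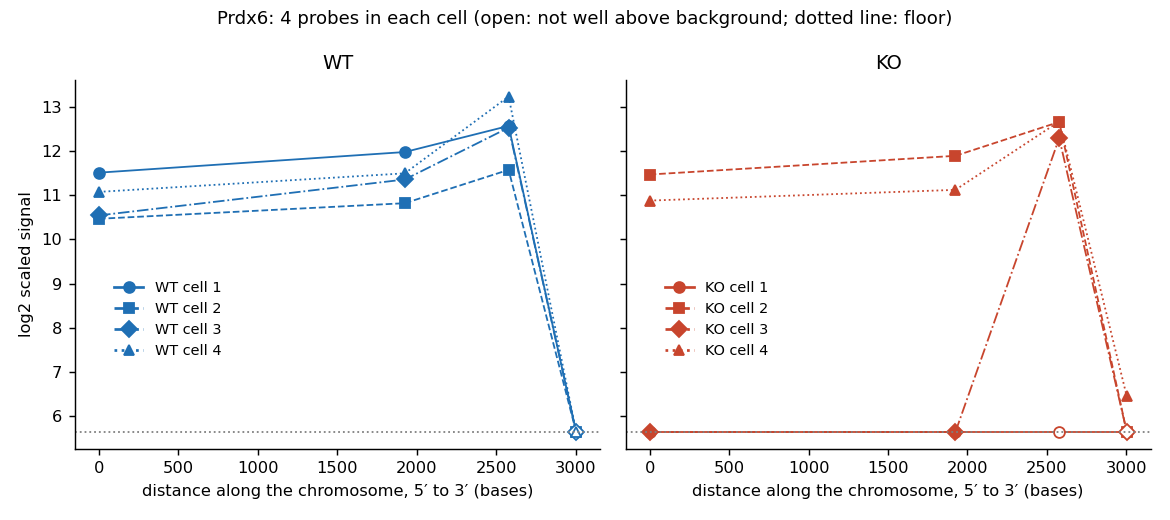
The log2 scaled signal (y axis) of the 4 Prdx6 probes is plotted against their distance along the chromosome from the most 5′ probe (x axis, in bases), with 1 line per cell for WT (left) and KO (right), open symbols for probes not well above background and the floor as a dotted line. All 4 WT lines run close together, KO cells 2 and 4 follow them, KO cell 1 stays at the floor, and KO cell 3 is at the floor for both upstream probes and at 4998 for the next.

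Gpx1, the widely expressed glutathione peroxidase of cytosol and mitochondria, read 21623, 4561, 2585 and 6564 in the WT cells and 50, 12027, 7999 and 9593 in the KO cells. It was not detected in KO cell 1, and the other 3 KO cells were above 3 of the 4 WT cells. The means were 12.64 ± 1.30 in WT and 11.35 ± 3.81 in KO, the latter the largest SD in the set. The difference was -1.30, and it was 0.61 without KO cell 1 and 0.68 when the median of the cells replaced the mean. The range over the 8 cells, 432-fold, was the widest of the 10 genes.

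Gpx4, which reduces lipid hydroperoxides in membranes and protects cells from ferroptosis, had the narrowest range after Sod1, at 5.30-fold. It was detected in all 8 cells, at 43266, 11527, 13155 and 14218 in the WT cells and 13933, 18882, 8169 and 14620 in the KO cells. WT cell 1 was the highest and the other 7 cells lay between 8169 and 18882. The means were 14.09 ± 0.88 in WT and 13.70 ± 0.51 in KO, a difference of -0.39, which was 0.04 without WT cell 1.

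**Figure D4:**
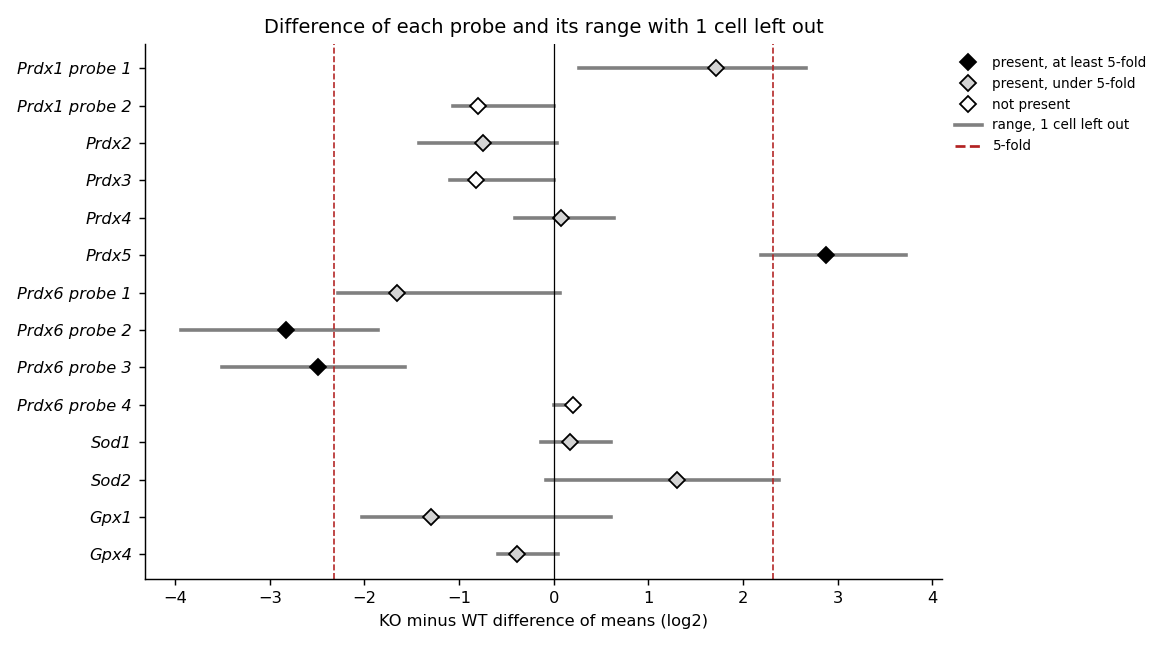
The KO minus WT difference of mean log2 signal (x axis) is shown for each of the 14 probes (y axis, probes of a gene numbered from the brightest), with filled diamonds for probes past the 5-fold size rule, grey for other present probes, open for probes not present, and a bar for the range when each of the 8 cells was left out in turn. The bar of Prdx5 and those of Prdx6 probes 2 and 3 cross the dashed 5-fold lines and do not reach 0, as does that of the first Prdx1 probe, from 0.26 to 2.66.

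Cell by cell, the number of the 10 genes detected was 7, 8, 10 and 10 for the WT series and 7, 10, 9 and 10 for the KO series, both in the order of cells 1 to 4. The genes at the floor differed from cell to cell: Prdx1, Prdx3 and Prdx5 in WT cell 1, Prdx3, Prdx5 and Sod2 in WT cell 2, and Prdx3, Prdx6 and Gpx1 in KO cell 1. KO cell 1 was the lowest cell for Prdx2, Prdx6 and Gpx1 and the highest for Prdx4, and the median of the 10 genes was 8.42 in it against 12.16 to 12.67 in the other KO cells and 11.56 to 12.09 in the WT cells. The array of KO cell 1 detected 13545 probes, the most of the KO arrays, and the part of amplification or depth in its values was not tested. WT cell 1 was the highest cell for Sod1, Gpx1 and Gpx4. Of the 10 genes, 6 had between 1 and 7 cells at the floor, as did 57.4% of the present genes.

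For the 3 members with the largest differences, the genes with the most similar profile over the 8 cells were sought among 2854 genes, as a description over cells that share the amplification and array of each cell. Prdx5 was followed most closely by Crtap (Pearson r = 0.953), Bag1 (r = 0.879) and Ripply2 (r = 0.861). Crtap was at the floor in WT cells 1, 2 and 3 and KO cell 1. Ripply2 was at the floor in those cells and in KO cell 3, and between 96.1 and 179 in the others. Both values of r thus rest in part on ties at the floor. The nearest to Prdx1 were Ubl5 (r = 0.954), Gm16381 (r = 0.948) and 1600029O15Rik (r = 0.935). Ubl5 and Gm16381 varied in parallel, at 2703 and 1749 in WT cell 2 and 10514 and 6717 in KO cell 2. Whether their probes read the same transcript was not tested. The nearest to Prdx6 probe 1 were Psma7 (r = 0.990), Cct3 (r = 0.968) and Sfr1 (r = 0.966). Psma7, a proteasome subunit, was at the floor in KO cell 1 and between 9430 and 18943 in the other 7 cells, and Cct3, a chaperonin subunit, was at the floor in KO cell 1 and between 1056 and 2497 in the others. KO cell 1 was the lowest cell for all 3 genes named beside Prdx6, and WT cell 1 for all 3 named beside Prdx1. Prdx6 probe 1 was itself at the floor in KO cell 1, and Prdx1 in WT cell 1. A search for similar profiles favours genes low in the same cell, so the shared low cell is no separate finding.

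Promoters in RefSeq on GRCm38.p6, 250 bases before to 50 after each start, were held for 9 of the 10 genes (Prdx6 was not among them), 12 promoters in all. They were searched on both strands for TGACNNNGC, the core of the antioxidant response element to which NRF2 binds. It was found in 2 of the 12, against 12.4% of 32851 promoters, in both cases on the strand opposite to the gene. In Prdx1 (promoter chr4:116685349-116685648) it lay 133 bases upstream of the start, in ctacgggggaTGACTCAGCgctttccctgg, and in Sod1 (promoter chr16:90220512-90220811) 56 bases upstream, in ggcctgagtcTGACCACGCccaccttggca, each written along the matching strand with the match in capitals. These are matches of letters only, and the differences of these genes, 1.72 and 0.18, were both under the size rule.

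The enzymes that work with the 10 genes were followed in 7 lists of 61 further genes, of which 16 were present, 1 was lower by the rule and 0 were higher, against 11.1% and 2.87% of all present genes. None of the other settings gave fewer than 1 lower gene. The count was 4 without scaling, with the 75th percentile or with scaling over all probes, and 2 to 5 with 1 cell left out. The lower probes of the whole array, 514 as reported, rose to 600, 577 and 621 under the same scalings. With 1 cell left out they were 500 to 919. Of the 16, 9 had a difference below 0 and 6 above 0, with a median of -0.34 (-0.57 without the 2 genes whose probe the array places on another chromosome), and 14 of the 61 genes were detected in 0 cells. The gene past the rule was Taldo1, transaldolase of the pentose phosphate pathway, which belongs to the list of NADPH supply (2 of 8 genes present). Its signal was 40453, 7933, 11487 and 6772 in the WT cells and 76.2, 16002, 50 and 3715 in the KO cells. As for Prdx6 probes 2 and 3, KO cells 1 and 3 were the low ones. The difference was -4.19 and ranged from -5.70 to -2.93 with 1 cell left out. The other present gene of the list was Idh2, the mitochondrial NADP-dependent isocitrate dehydrogenase, at -0.94. Its KO cell 3, at 477, was the 1 KO cell below the WT range of 6423 to 13648, and without it the difference was 0.19.

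Of 9 other peroxidases and dismutases 3 were present and 0 passed the rule. Gpx3, the secreted glutathione peroxidase, read 4233, 7671, 8843 and 6473 in the WT cells and 12458, 13180, 11072 and 12159 in the KO cells. It was the 1 gene of the 61 in which the genotypes did not overlap, every KO cell being above every WT cell, as in 2.51% of present genes, and its difference was 0.89, between 0.68 and 1.04 with 1 cell left out. Cat, which encodes catalase, had a difference of 0.50, which was -0.01 without KO cell 4, and Ccs, the copper chaperone of Sod1, was above the floor only in WT cell 4, at 5593, and KO cell 1, at 69.3. The other Cat probe was above the floor in KO cell 4 alone, at 77.6, and was not present.

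In the thioredoxin system 3 of 12 genes were present and 0 passed the rule: cytosolic Txn1 had a difference of 1.41, mitochondrial Txn2 of -2.15 and the stress-induced Sesn2 of 1.02. Txn1 was at the floor in WT cell 1, as Prdx1 was, and between 527 and 9854 in the other 7 cells, and its difference was -0.02 without WT cell 1. That of Txn2 was -3.11 when WT cell 3 was left out and -0.95 when KO cell 2 was, and that of Sesn2 was 0.18 without KO cell 3. The other Txn2 probes on the array were at the floor in all 8 cells. Among glutathione synthesis genes and glutaredoxins 2 of 8 were present, Glrx3 at -0.64 and Glrx2 at 0.01, although the array places that Glrx2 probe on a chromosome other than that of the gene. Neither kept its sign with 1 cell left out, Glrx3 ranging from -1.96 to 0.47 and that Glrx2 probe from -0.32 to 0.55. A Glrx2 probe on the chromosome of the gene was not present. It read 1064 in WT cell 2, 2313 in WT cell 4 and the floor in the other cells, a difference of -2.49. Another Glrx2 probe on that chromosome was at the floor in all 8 cells. Among glutathione transferases 2 of 10 were present, Gstp1 at -2.31, just under the rule, and Mgst3 at -0.50. Gstp1 ranged from -3.09 without KO cell 2 to -1.17 without KO cell 1, and Mgst3 was 0.00 without WT cell 1, the only cell above the floor. Of the 7 genes of NRF2 and its targets 3 were present: the ferritin heavy chain Fth1 at -0.18 (0.53 without WT cell 1), the light chain Ftl1 at 1.04, whose probe is also placed on another chromosome, and Hmox1, the heme oxygenase, at the floor in all 8 cells. Of the 7 methionine sulfoxide reductases, metallothioneins and Park7, only Park7 was present, at -2.22, with KO cells 1 and 2 at the floor and KO cells 3 and 4 at 11331 and 6889, against 927 to 6888 in the WT cells. Without either of the cells at the floor its difference was -0.98, and without KO cell 3 it was -3.58. A second Park7 probe, also present, gave a smaller difference of -1.06, ranging from -2.51 to -0.12 with 1 cell left out.

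**Figure D5:**
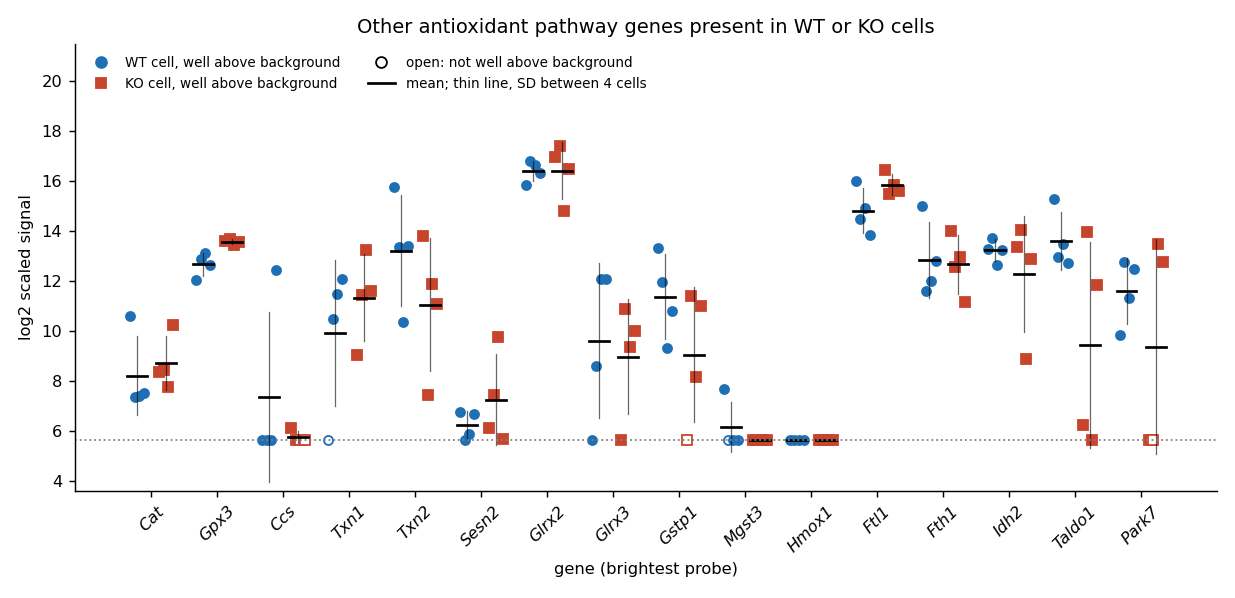
The log2 scaled signal (y axis) of the 16 present genes of the pathway lists (x axis, representative probes) is plotted for the 4 WT cells (circles) and the 4 KO cells (squares), with means, SDs between cells, open symbols for cells not well above background and the floor as a dotted line. Taldo1 has 2 KO cells at or near the floor, at 76.2 and 50, and Gpx3 is the gene in which the KO cells, from 11072 to 13180, all lie above the WT cells, from 4233 to 8843.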

How the data were processed

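Amplified cDNA of 8 single myocardial cells (4 WT, 4 KO) was labelled with Cy3 and hybridised, 1 cell per array, to Agilent one-colour mouse arrays. The deposited values were intensity values of Agilent Feature Extraction 12.0.2.2 per the file headers: the background-corrected processed signal, the mean spot and median background intensity, and flags set by the software, which carry no scale. The authors state that levels under 50 were set to 50 and that each chip was normalized on its 50th percentile. Here, control spots and outlier spots (146 to 220 per array) were left out, 0 spots were saturated, spots of a probe were averaged on the log2 scale, and each array was shifted (by -0.76 to 0.68) so that its 50th percentile over the 5301 probes detected on all 8 arrays equalled the mean over arrays, since most probes were not detected. The floor of 50 followed. The number of arrays limits the precision.

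Groups came from the genotype labels. Because no label names an embryo, each genotype was 1 sample and only a rule of size (5-fold, present probes) was applied. A gene was represented by its brightest probe. The text names all 10 members, the present genes of the pathway lists, the 3 genes of most similar profile for each of the 3 members with the largest differences, and the neighbours of a member past the rule. The members and lists were chosen with earlier results of these data known. RefSeq tables gave names and promoters. The code that applies the rule was tested on simulated data. The simulated noise was smaller than the spread between these cells, so how the rule performs on such data was not tested. Python 3.11.15, pandas 2.3.3 and numpy 2.4.6 were used, with R 4.3.3 and limma 3.58.1 for the alternative normexp background correction. The alternatives were other scalings, quantile normalization, no floor, other detection filters, 2-fold and 10-fold rules, medians of cells, means over probes, kept outlier spots and leaving out each cell.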

Additional observations from a re-analysis of the deposited data

Results flagged for a closer look

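Among 54 groups of 4 cells (a probe in a genotype), 10 had 1 cell apart from the other 3. The measure was the gap to the nearest cell over the range of the group, held against Dixon's 95% limit for 4 values. In 6 of the 10 groups the other 3 cells were tied at the floor, where any value above it passes by construction, so the rate of about 1 in 20 groups that chance gives does not apply to them. The other 4 groups, 3 of them on probes of the 10 genes, had 3 cells with separate values.

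KO cell 1 stood below the other KO cells for Prdx6 probe 1, at 50 against 4998 to 6481, and for Gpx1, at 50 against 7999 to 12027. WT cell 1 stood above the other WT cells for Gpx4, at 43266 against 11527 to 14218. The remaining member probes were single cells above a floor of 50 in the other 3: the second Prdx1 probe in WT cell 2, at 454, Prdx3 in WT cell 3, at 486, and Prdx6 probe 4 in KO cell 4, at 87.5.

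Among the pathway genes, Cat was apart in WT cell 1, at 1549 against 163 to 184. Ccs was apart in WT cell 4, at 5593, and in KO cell 1, at 69.3, and Mgst3 in WT cell 1, at 202, each against 50 in the other cells of the genotype.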

How the results depend on the processing

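No paired analysis was possible because the replicate numbers only count the cells of a genotype and no test was made. Each result was recomputed under 15 other settings with all 8 cells and with each of the 8 cells left out. Of 318 differences of single member genes and probes, 316 moved by less than 1 SD between cells and 0 of those past the size rule changed sign. The 2 that moved further were without the floor: Prdx5 to 5.10 and Prdx6 probe 4 to 1.67. The detection filters and the 2-fold and 10-fold rules cannot change a difference, so part of the 318 were fixed in advance. The SD was the larger of the 2 genotypes, up to 3.81 for Gpx1. A change of sign could therefore stay within it, as for Gpx1 from -1.30 to 0.68 with medians of cells. The same held for Sod2, from 1.30 to -0.09 without WT cell 2.

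Member probes lower in KO, 2 as reported, were 4 with a 2-fold rule, 0 with a 10-fold rule, 4 without the floor and 1 after quantile normalization, and 0 to 2 with 1 cell left out, with 0 without KO cell 1 or KO cell 3 and 1 without WT cell 1. Member probes higher in KO, 1 as reported, were 3 with a 2-fold rule, 0 with a 10-fold rule, 0 when detection in all 8 cells was required and 2 without the floor, and 0 to 2 with 1 cell left out, with 0 without KO cell 2 and 2 without KO cell 1, WT cell 2 or WT cell 3. Member genes higher, 1 as reported, gave the same values as member probes higher under each of these settings, and member genes lower, 0 as reported, were 2 with a 2-fold rule and 2 without the floor. The pathway genes lower, 1 as reported, were 5 with a 2-fold rule, 4 without the floor, without scaling, with the 75th percentile or with scaling over all probes, 2 with medians of cells, normexp or quantile normalization, and 2 to 5 with 1 cell left out, the highest without WT cell 1. The pathway genes higher, 0 as reported, were 3 with a 2-fold rule and 0 to 1 with 1 cell left out, with 1 without KO cell 2 or KO cell 3. Counts over the whole array moved as well. Its present probes lower in KO, 514 as reported, were 1216 with a 2-fold rule and 220 with a 10-fold rule. They were 874 without the floor, 403 after quantile normalization and 500 to 919 with 1 cell left out. Its present probes higher in KO, 131 as reported, were 854 with a 2-fold rule and 53 with a 10-fold rule. They were 240 without the floor, 47 when detection in all 8 cells was required and 120 to 248 with 1 cell left out.

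The median difference of the 10 genes lay between -0.51 and 0.28 over the settings with all 8 cells and between -0.48 and 0.16 with 1 cell left out. The scaling moved the whole array: for the 5301 probes found in every cell the median difference was 0.15 as reported, 0.00 with scaling over all probes, 0.32 after quantile normalization and 0.34 without the floor. Values at the floor have no order, and every difference that includes a cell at the floor depends on where the floor was set. With 4 cells per genotype on 1 slide each, the spread between embryos was not measured.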
